A study of Drosophila melanogaster with 9 samples.

Results

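The subject is the DNA replication machinery of *Drosophila melanogaster* embryos, followed as 33 named genes in whole-embryo RNA sequencing of *Kahuli* (*Kah*) mutants. A gene was taken when its name in either expression table equalled a listed name, and 32 of the 33 were found among 14909 genes listed in at least 1 table. The remaining one, lat, which encodes the third subunit of the origin recognition complex, is not analysed here. The rule uses no measured value, although the names were listed with earlier results of these data known. Embryos were KahΔATG (kah-deltaATG in the labels), KahΔZnF (kah-deltaznf) or the wild-type strain w1118, with 3 libraries each, from eggs laid 5 to 16 h earlier. KahΔATG lacks most of the exon that holds the start codon, and KahΔZnF has an in-frame deletion of the zinc-finger region. Both alleles were made by CRISPR/Cas9 in the germline. The number of independent lines behind each allele and the zygosity of the sequenced embryos are not given in the sources used here. The sources differ on whether the replicates of a genotype came from separate embryo collections, so p-values measure only the spread between these samples.

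Replication starts when the origin recognition complex (ORC) marks an origin and, with Cdt1 (dup in flies), loads the ring of MCM proteins, while geminin holds Cdt1 in check until the next cycle. The loaded ring becomes an active helicase once Cdc45 and the GINS complex join it, with Mcm10 assisting. Behind the helicase, RPA coats single-stranded DNA, replication factor C places the PCNA clamp, Fen1 and DNA ligase I finish the lagging strand, ribonucleotide reductase supplies deoxynucleotides and chromatin assembly factor 1 puts histones back. Fly embryos receive many of these transcripts from the mother, and dividing neuroblasts and endocycling tissues keep making them after other cells have left the cycle.

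The values are normalized counts, which are the reads on a gene divided by a size factor of its library. Libraries held 17990440 to 20036805 reads on genes, and the 32 genes had between 47 reads (Psf1) and 9461 reads (dup) in a library. *Kah* itself, which lies outside the list, had 1700.2, 1569 and 1619.9 normalized counts in KahΔATG embryos against 380.0, 357 and 369 in w1118, and 774, 683 and 773 in KahΔZnF embryos against 377, 362 and 375 in w1118. A count over the whole gene does not check a deletion of part of it. The w1118 libraries are the same in both tables with slightly different scaling, so the comparisons of the mutants with w1118 share their controls. Mitochondrial genes took 8.67% of reads in KahΔZnF replicate 1, 9.76% and 11.2% in w1118 replicates 2 and 3, and 15.3% to 16.6% in the other libraries. In w1118, replicate 1 had the highest value of its group for 29 of the 32 genes and replicate 3 the lowest for 27, whereas replicate 1 was highest for 39.7% of all genes tested. The median deviation of the replication genes from their w1118 mean was 0.21 (log2) in replicate 1, -0.04 in replicate 2 and -0.18 in replicate 3.

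Most replication genes had higher values in both mutants than in w1118, and higher values in KahΔZnF than in KahΔATG embryos. A gene is called here when its log2 fold change is 0.59 (1.5-fold) or more in either direction and limma gives an adjusted p of 0.05 or less, with adjustment over all genes tested. All 32 genes passed the filter on low values in each comparison. In KahΔATG embryos 12 genes were called higher than w1118, 1 (Psf3) was called lower and 19 were not called, where 14.7% of all 10972 genes tested were called higher and 10.6% lower. In KahΔZnF embryos 30 were called higher, 0 were called lower and 2 (Psf3 and Gnf1) were not called, where 23.8% of all 10957 genes were called higher and 25.5% lower. The count of 0 called lower in KahΔZnF was the same in limma, edgeR and DESeq2, and 1 gene (Psf3) was lower at an unadjusted p under 0.05 in limma. The median log2 fold change of the replication genes was 0.53 in KahΔATG, where that of all genes was -0.02, and 1.06 in KahΔZnF, where that of all genes was 0.00. The quartiles of the replication genes were 0.36 and 0.86 in KahΔATG and 0.88 and 1.37 in KahΔZnF. Those of all genes were -0.34 and 0.35 in KahΔATG and -0.63 and 0.58 in KahΔZnF. All 3 KahΔATG libraries lay above all 3 w1118 libraries for 22 of the 32 genes, against 29.6% of all genes. The same held for all 3 KahΔZnF libraries and 31 of the 32, against 37.4% of all genes. In whole embryos, more cells that carry these RNAs and more RNA per cell cannot be told apart.

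**Figure D1:**
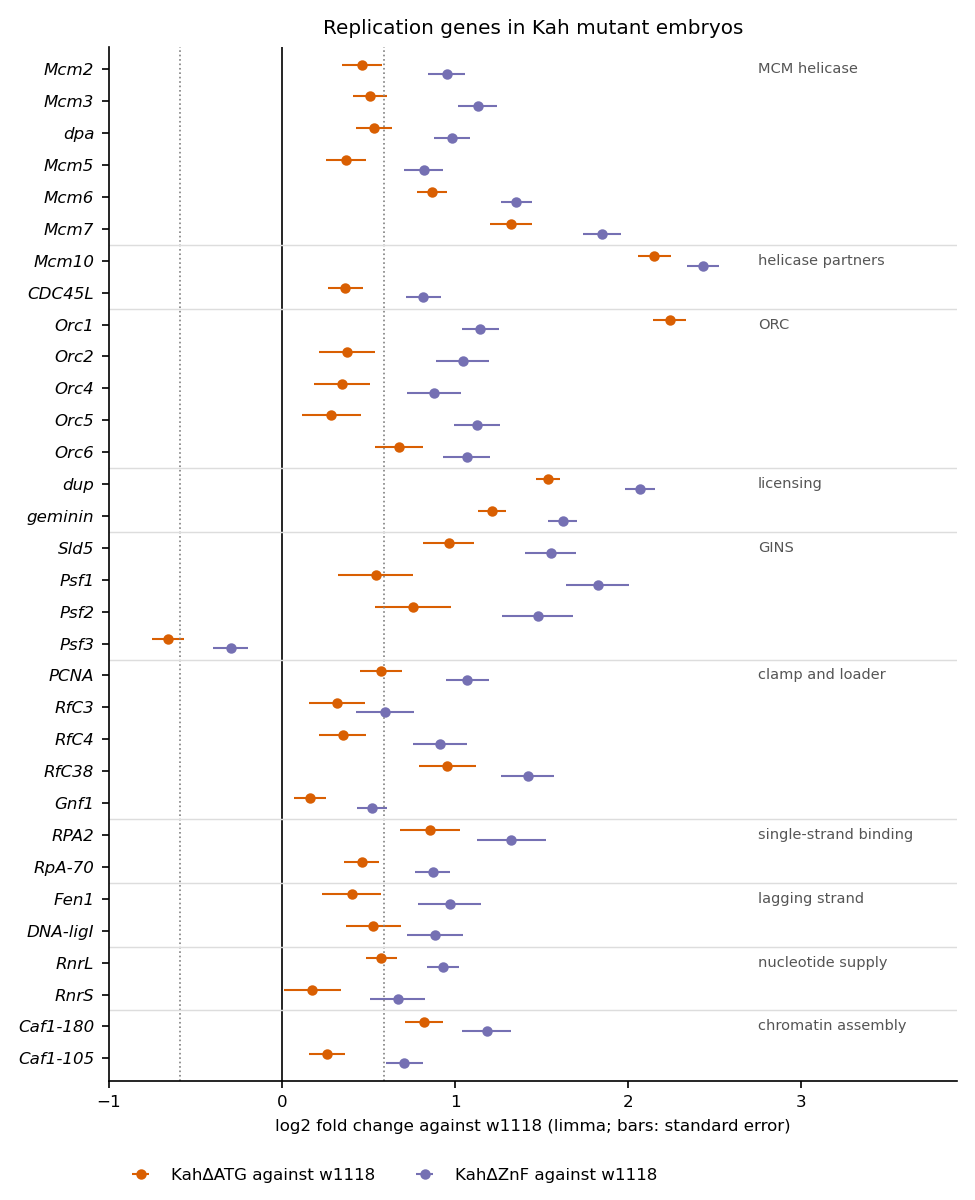
Log2 fold change of each of the 32 replication genes against w1118 (x axis) in KahΔATG (orange, upper point of each pair) and KahΔZnF (purple, lower point), with bars for the standard error over 3 against 3 libraries and dotted lines at 0.59 and -0.59. All points but those of Psf3 lie right of 0, and the KahΔZnF point lies right of the KahΔATG point for every gene except Orc1.

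The MCM ring was called higher as a whole in KahΔZnF, with 6 of 6 genes, and in part in KahΔATG, with 2 of 6 (Mcm6 and Mcm7). Mcm7 had the largest log2 fold changes of the ring. Mcm7 (FBgn0020633, chromosome 3L, 8891596 to 8894310, plus strand, BDGP6) had 1279, 1136 and 1064 normalized counts in KahΔATG embryos, against 533, 470.3 and 392 in w1118. In KahΔZnF embryos Mcm7 reached 1657, 1678 and 1693, against 528, 478 and 398 in w1118. Neither mutant overlapped w1118, and the log2 fold changes were 1.32 (SE 0.12, adjusted p = 2.26e-05) in KahΔATG and 1.85 (SE 0.11, adjusted p = 2.42e-07) in KahΔZnF. The annotation places a non-coding gene, asRNA:CR45871, on the other strand over 81.7% of the exon bases of Mcm7. Whether reads were counted by strand is not given in the sources used here, so reads of the pair cannot be told apart, and no row carries the antisense gene's name.

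Mcm6 had 2473, 2534 and 2257 in KahΔATG against 1475, 1317 and 1197 in w1118. Its values in KahΔZnF were 3590.4, 3211 and 3457 against 1462, 1338 and 1216 in w1118. Mcm6 therefore rose by 0.87 (log2, SE 0.09) in KahΔATG and by 1.35 (SE 0.09) in KahΔZnF. Mcm5 showed the smallest log2 fold changes of the ring, with 1345, 1258 and 1278 in KahΔATG against 1209, 974 and 853 in w1118, and 1759, 1734 and 1852 in KahΔZnF against 1198, 989.6 and 866 in w1118. The groups did not overlap in either comparison, but the KahΔATG estimate of 0.37 (adjusted p = 0.0252) stayed under the limit on size, while KahΔZnF rose by 0.82 (adjusted p = 8.51e-05). The same was true of Mcm2, Mcm3 and dpa, the fly Mcm4. Mcm2 had 1078, 1053 and 936 in KahΔATG against 842, 774 and 623 in w1118, and 1432, 1450.5 and 1449 in KahΔZnF against 835, 786 and 632 in w1118. Mcm3 had 1087, 945 and 1009.5 in KahΔATG against 812, 658 and 673 in w1118, and 1389.7, 1547 and 1795 in KahΔZnF against 804, 669 and 683 in w1118. For dpa the values were 1776, 1622 and 1565 in KahΔATG against 1314, 1159.6 and 978 in w1118, and 2274, 2213 and 2335 in KahΔZnF against 1302, 1178 and 993 in w1118. Each of these 3 was separated from w1118 in KahΔATG by estimates of 0.46, 0.51 and 0.53, all with an adjusted p of at most 0.00855, and in KahΔZnF they rose by 0.95, 1.13 and 0.98. Without w1118 replicate 1, Mcm3 (0.60) and dpa (0.63) also passed the limit in KahΔATG.

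The partners of the helicase differed from each other. Mcm10 (FBgn0032929, chromosome 2L, 21179933 to 21182812, plus strand, BDGP6) had 1693, 1795 and 1492 normalized counts in KahΔATG embryos against 402, 375 and 340.4 in w1118. It had 2139, 1866 and 2086 in KahΔZnF embryos against 399, 382 and 346 in w1118. The lowest mutant library was thus far above the highest w1118 library, with log2 fold changes of 2.15 (SE 0.10, adjusted p = 7.79e-07) in KahΔATG and 2.43 (SE 0.09, adjusted p = 3.78e-08) in KahΔZnF, the largest of the 32 genes in KahΔZnF. Exons of Ret, a receptor tyrosine kinase gene on the other strand, share 13.01% of its exon bases. Ret was not called in either mutant (-0.13 in KahΔATG and -0.19 in KahΔZnF). CDC45L, the fly Cdc45, had 412, 472 and 431 in KahΔATG against 375, 330.0 and 316 in w1118, and 577, 625 and 608 in KahΔZnF against 372, 335 and 321 in w1118. CDC45L rose in KahΔZnF (0.82, adjusted p = 3.58e-05) and stayed under the limit in KahΔATG (0.37, adjusted p = 0.0143). Measured per kb of exon within each library, Mcm10 reads were 3.22, 2.98 and 2.72 times those of CDC45L in KahΔATG, 2.91, 2.34 and 2.69 times in KahΔZnF and 0.842, 0.893 and 0.846 times in w1118. The 6 mutant libraries had more Mcm10 than CDC45L and the 3 w1118 libraries had less.

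Among the 5 ORC genes, all were called higher in KahΔZnF and 2, Orc1 and Orc6, in KahΔATG. Orc1 broke the order that the other ORC genes followed. Orc1 (FBgn0022772, chromosome 2R, 7522437 to 7525716, minus strand, BDGP6), which encodes the large ATPase subunit, had 1751, 1714 and 1612 normalized counts in KahΔATG embryos against 406, 346 and 324 in w1118. In KahΔZnF embryos it had 853, 780.0 and 762 against 403, 352 and 329 in w1118. The 3 groups were fully separated, with KahΔATG highest, KahΔZnF between and w1118 lowest. The log2 fold changes were 2.24 (SE 0.10, adjusted p = 6.97e-07) in KahΔATG, the largest of the 32 genes in that mutant, and 1.15 (SE 0.11, adjusted p = 5.06e-06) in KahΔZnF. The order with KahΔATG highest and no overlap between groups was found for 1 of the 32 genes and for 0.904% of all 10838 genes tested between the mutants, and *Kah* itself is 1 of these (log2 fold change 2.14 in KahΔATG and 0.998 in KahΔZnF).

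Orc6, the smallest ORC subunit, had 150.4, 157 and 138 in KahΔATG against 99.2, 81.5 and 97.4 in w1118, and 200.8, 197 and 190.3 in KahΔZnF against 98.3, 82.9 and 98.9 in w1118. It rose by 0.68 (adjusted p = 0.00316) in KahΔATG and by 1.07 (adjusted p = 4.75e-05) in KahΔZnF. Without w1118 replicate 2 the KahΔATG estimate was 0.587, just under the limit. The other ORC genes overlapped w1118 in KahΔATG and were separated from it in KahΔZnF. Orc2 had 224, 209.7 and 188 in KahΔATG against 196, 162 and 127 in w1118, and 350.0, 306 and 340.3 in KahΔZnF against 194, 165 and 129 in w1118. Orc4 had 377, 309 and 334 in KahΔATG against 344, 239.9 and 228 in w1118, and 434, 548 and 507 in KahΔZnF against 341, 244 and 232 in w1118. Orc5 had 208, 147 and 153 in KahΔATG against 162, 131 and 122 in w1118, and 318, 292 and 299.9 in KahΔZnF against 160.5, 133 and 124 in w1118. The KahΔATG estimates of these 3 were 0.38, 0.35 and 0.28 with adjusted p between 0.0845 and 0.195, whereas in KahΔZnF they rose by 1.04, 0.88 and 1.13.

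The licensing pair was called higher in both mutants. The MCM loader dup (FBgn0000996, chromosome 2R, 15376619 to 15380988, minus strand, BDGP6) had 5845, 5781 and 5214 normalized counts in KahΔATG embryos against 1879, 2039.5 and 1882 in w1118, and 9049, 7762 and 7760.1 in KahΔZnF embryos against 1861, 2073 and 1911 in w1118. Its inhibitor geminin (FBgn0033081, chromosome 2R, 6655463 to 6656594, minus strand, BDGP6) had 4186, 3989 and 3831 in KahΔATG against 1915, 1714 and 1557 in w1118, and 5293, 5166 and 5572 in KahΔZnF against 1898, 1742 and 1580.5 in w1118. Loader and inhibitor thus rose together, dup by 1.54 (SE 0.07, adjusted p = 7.79e-07) in KahΔATG and 2.07 (SE 0.09, adjusted p = 5.30e-08) in KahΔZnF. For geminin the log2 fold changes were 1.21 (SE 0.08) in KahΔATG and 1.62 (SE 0.09) in KahΔZnF. Per kb of exon, dup reads were 0.472, 0.490 and 0.460 of geminin reads in KahΔATG, 0.578, 0.508 and 0.471 in KahΔZnF and 0.332, 0.402 and 0.409 in w1118. Every mutant library lay above every w1118 library in this ratio, although geminin was the more abundant RNA of the pair in all 9.

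**Figure D2:**
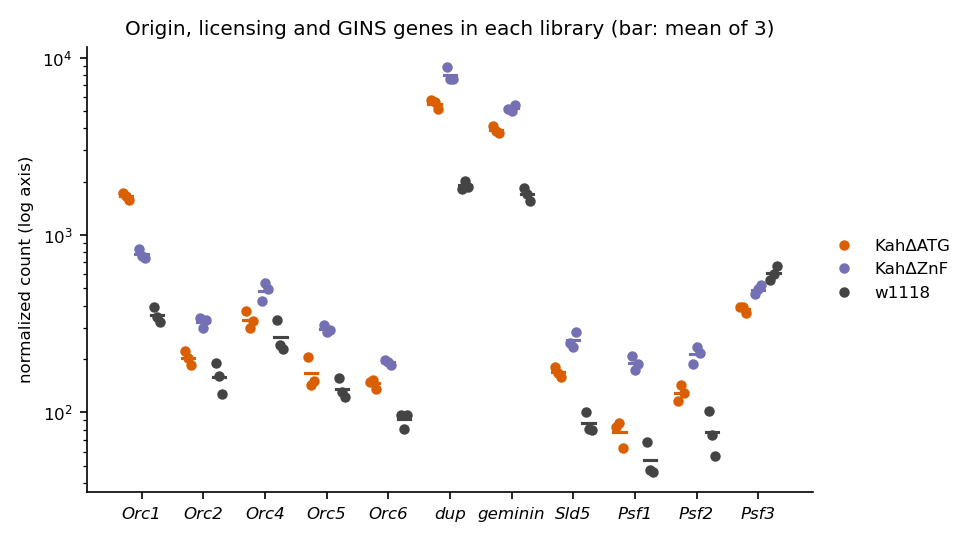
Normalized counts (log axis) of 5 ORC genes, dup, geminin and the 4 GINS genes in each library, with all 9 libraries on 1 scale, KahΔATG in orange, KahΔZnF in purple, w1118 in grey and a bar at the mean of 3. Orc1 is highest in KahΔATG and Psf3 is highest in w1118, while the other 9 genes have their highest mean in KahΔZnF.

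The GINS genes split. Sld5, Psf1 and Psf2 were called higher in KahΔZnF, Sld5 and Psf2 in KahΔATG, and Psf3 was the only one of the 32 genes called lower in either mutant. Sld5 had 183, 171 and 161 in KahΔATG against 104, 80.6 and 79.7 in w1118, and 252, 240.3 and 290.3 in KahΔZnF against 103, 81.9 and 80.9 in w1118. Psf2 had 117, 146 and 131 in KahΔATG against 106, 74.9 and 57.1 in w1118, and 192, 239 and 222 in KahΔZnF against 105, 76.1 and 57.9 in w1118. Both rose, Sld5 by 0.96 in KahΔATG and 1.55 in KahΔZnF, and Psf2 by 0.76 (adjusted p = 0.0172) in KahΔATG and 1.48 in KahΔZnF. The Psf2 call in KahΔATG was lost without w1118 replicate 2 (0.74) or 3 (0.55), and without KahΔATG replicate 2 (0.68) or 3 (0.76), where its adjusted p or its size missed the limit, and with a term for the mitochondrial share (0.45). Psf1 (FBgn0035194, chromosome 3L, 1246986 to 1247677, minus strand, BDGP6) had 83.1, 90.3 and 64.4 in KahΔATG against 70.2, 47.4 and 46.2 in w1118, and 213, 178 and 191 in KahΔZnF against 69.6, 48.2 and 47.0 in w1118. KahΔATG overlapped w1118 for Psf1 (0.54, SE 0.22, adjusted p = 0.0644), whereas KahΔZnF was well above it (1.82, SE 0.18, adjusted p = 8.89e-06). Psf1 also had the fewest reads of the 32 genes in every KahΔATG and w1118 library, so its values there carry the largest relative counting error. In KahΔZnF this did not hold throughout, as Psf2 was below Psf1 in replicate 1 (192 against 213).

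Psf3 (FBgn0030196, chromosome X, 10383353 to 10385861, minus strand, BDGP6) had 394, 408 and 368 normalized counts in KahΔATG embryos against 575, 605 and 670.0 in w1118, and 473, 506 and 535 in KahΔZnF embryos against 569, 615 and 680.3 in w1118. Both mutants lay wholly below w1118, and Psf3 fell by 0.66 (log2, SE 0.09, adjusted p = 3.20e-04) in KahΔATG. In KahΔZnF the estimate was -0.30 (SE 0.10, adjusted p = 0.0229), which is under the limit on size. Exons of CG17841, a protein-coding gene on the other strand, share 34.9% of the exon bases of Psf3. CG17841 had 2147, 2153 and 2156 normalized counts in KahΔATG against 2650, 3301 and 3855 in w1118 (log2 fold change -0.59, adjusted p = 0.00274), and a log2 fold change of -0.64 in KahΔZnF. The part of CG17841 reads in the Psf3 values was not tested.

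Because the genes of a complex did not move equally, the make-up of their RNA pool within a library differed between genotypes. Shares of reads per kb do not depend on library scaling, and with 3 against 3 libraries an exact permutation test cannot give a two-sided p below 0.1, so for the 23 within-library ratios in 69 comparisons only the overlap of the groups is given. Orc1 made up 47.1, 49.9 and 49.0% of the reads per kb of the 5 ORC genes in KahΔATG, 24.4, 22.2 and 22.0% in KahΔZnF and 20.2, 21.9 and 21.4% in w1118. KahΔATG embryos thus carried nearly as much Orc1 RNA as that of the other 4 ORC genes measured, and KahΔZnF stood only just above w1118. Mcm7 made up 15.8, 14.8 and 14.6% of the ring in KahΔATG, 15.3, 15.8 and 15.0% in KahΔZnF and 9.64, 9.86 and 9.31% in w1118, so both mutants lay above w1118 and overlapped each other. Mcm5 went the other way, with 16.6, 16.4 and 17.6% in KahΔATG, 16.2, 16.3 and 16.4% in KahΔZnF and 21.9, 20.4 and 20.3% in w1118. Psf3 made up 25.2, 24.8 and 25.5% of GINS in KahΔATG, 18.9, 20.1 and 19.8% in KahΔZnF and 40.3, 49.5 and 54.4% in w1118. The share of Sld5 was above w1118 in every mutant library, with 36.0, 32.0 and 34.3% in KahΔATG, 31.0, 29.4 and 33.1% in KahΔZnF and 22.4, 20.3 and 19.9% in w1118. By these shares, Psf3 had the most GINS reads per kb in w1118, and Sld5 had the most in both mutants. On the other strand, CG17841 shares 34.9% of the exon bases of Psf3, and asRNA:CR45871 shares 81.7% of those of Mcm7. The part of their reads in these shares was not tested.

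**Figure D3:**
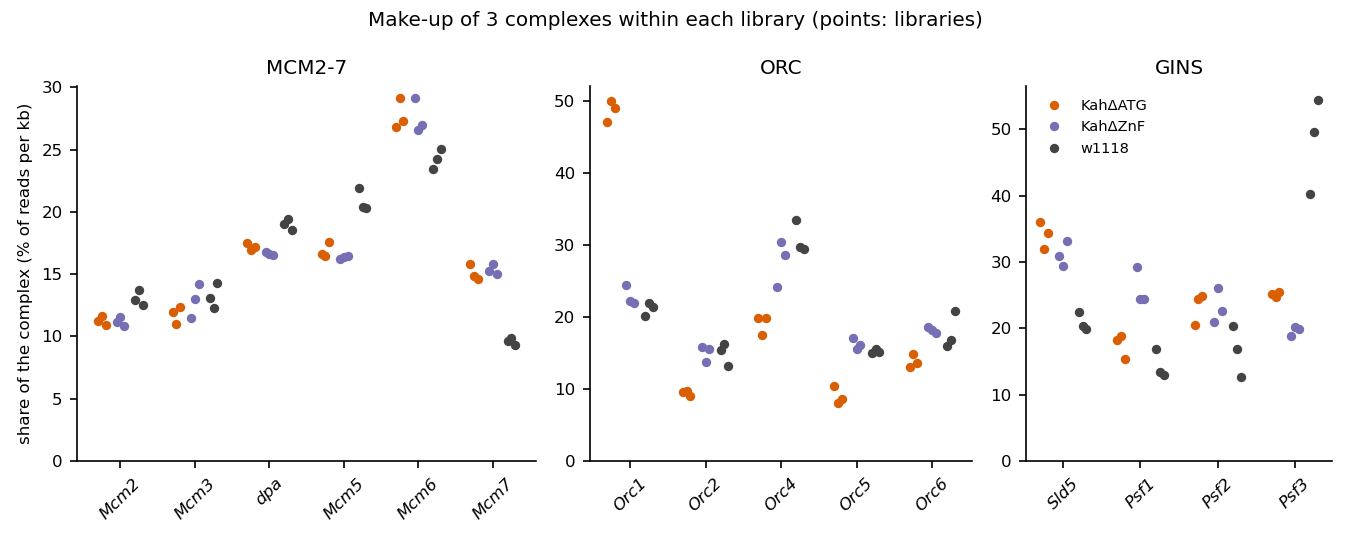
Share of each gene in the reads per kb of its complex (percent, y axis from 0) for the MCM ring, ORC and GINS, with 1 point per library, KahΔATG in orange, KahΔZnF in purple and w1118 in grey. Orc1 lies at 47.1% to 49.9% only in KahΔATG, whereas Mcm7 is raised and Psf3 lowered in both mutants.

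The clamp and its loader were mostly not called in KahΔATG, with 1 of 5 called higher, and mostly called in KahΔZnF, with 4 of 5. PCNA, the sliding clamp, had 2002, 1731 and 1872 in KahΔATG against 1533, 1179 and 1090.2 in w1118, and 2406, 2650.0 and 2937 in KahΔZnF against 1519, 1198 and 1107 in w1118. No mutant library overlapped w1118. The KahΔATG estimate of 0.57 (adjusted p = 0.00368) stayed just under the limit, and passed it without w1118 replicate 1 (0.72) or without KahΔATG replicate 2 (0.63), while KahΔZnF rose by 1.07 (adjusted p = 2.23e-05). RfC38, a small loader subunit, rose in both, with 557, 452 and 507 in KahΔATG against 341, 237 and 215 in w1118, and 652, 699.5 and 751 in KahΔZnF against 338, 241 and 219 in w1118. Its log2 fold changes were 0.96 in KahΔATG and 1.42 in KahΔZnF. Nup160, a nuclear pore gene on the other strand whose exons share 25.2% of those of RfC38, rose as well (1.06 in KahΔATG and 1.68 in KahΔZnF), and its part in the RfC38 values was not tested.

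RfC4 had 271, 252 and 239 in KahΔATG against 239.6, 179 and 183 in w1118, and 309, 409.8 and 429 in KahΔZnF against 237, 182 and 186 in w1118. RfC3 had 204, 200.02 and 260.4 in KahΔATG against 208, 180.2 and 146 in w1118, and 219, 297 and 297 in KahΔZnF against 206, 183 and 147.9 in w1118. Both overlapped w1118 in KahΔATG, with estimates of 0.35 (adjusted p = 0.055) and 0.32 (adjusted p = 0.128), and lay above it in KahΔZnF. There RfC4 rose by 0.92, while RfC3 was at the limit (0.59, adjusted p = 0.0081) and lost its call without w1118 replicate 3 (0.46) or KahΔZnF replicate 2 or 3 (0.52 each), in edgeR (0.57) and DESeq2 (0.588), and with a term for the mitochondrial share (0.47). Gnf1, the large loader subunit, was the 1 gene called in neither mutant. It had 666, 549.5 and 586 in KahΔATG against 558, 536 and 511 in w1118, and 727, 805 and 788 in KahΔZnF against 553, 544 and 518 in w1118. KahΔATG overlapped w1118 (0.16, SE 0.09, adjusted p = 0.172), whereas KahΔZnF was separated from it by less than the limit on size (0.52, SE 0.09, adjusted p = 3.73e-04).

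Of the RPA subunits, RPA2 was called higher in both mutants and RpA-70, the large DNA-binding subunit, in KahΔZnF. RPA2 had 593, 502 and 567 in KahΔATG against 397, 305 and 234 in w1118, and 590.1, 884 and 880.4 in KahΔZnF against 393, 310.3 and 238 in w1118. RpA-70 had 1392, 1335 and 1212 in KahΔATG against 1096, 917 and 858 in w1118, and 1734, 1661 and 1874 in KahΔZnF against 1086, 932 and 871 in w1118. RPA2 rose by 0.86 in KahΔATG and 1.33 in KahΔZnF, and RpA-70 by 0.87 in KahΔZnF, with 0.46 (adjusted p = 0.0044) in KahΔATG. With a term for the mitochondrial share, RPA2 had 0.48 in KahΔATG and was no longer called there. KahΔZnF replicate 1, the library with the fewest mitochondrial reads, was low for RPA2, near the KahΔATG libraries. It was the lowest of its group for 15 of the 32 genes, RPA2, Fen1 and RfC4 among them. For 11 of the 32 it was the highest, against 43.7% of all genes tested. The flap nuclease Fen1 had 417, 363 and 322 in KahΔATG against 356, 269 and 220.4 in w1118, and 435, 627 and 597 in KahΔZnF against 352, 274 and 224 in w1118. DNA-ligI, which seals the fragments, had 313, 287 and 296 in KahΔATG against 269.6, 189 and 174 in w1118, and 414, 343 and 403 in KahΔZnF against 267, 192 and 177 in w1118. Both rose in KahΔZnF, Fen1 by 0.97 and DNA-ligI by 0.88. Neither was called in KahΔATG, where Fen1 overlapped w1118 (0.40, adjusted p = 0.0796) and DNA-ligI did not (0.53, adjusted p = 0.0211), and DNA-ligI was called without w1118 replicate 1 (0.72).

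Ribonucleotide reductase was called higher in KahΔZnF and not in KahΔATG, and its subunits differed in spread. RnrL, the large subunit, had 964, 962 and 895 in KahΔATG against 698, 637 and 565 in w1118, and 1262, 1195 and 1180.3 in KahΔZnF against 692, 648 and 573 in w1118. All groups were separated, with 0.57 (adjusted p = 7.58e-04) in KahΔATG, just under the limit, and a rise of 0.93 in KahΔZnF. RnrL passed the limit in KahΔATG without w1118 replicate 1 (0.65) or without KahΔATG replicate 3 (0.61). RnrS, the small subunit, had 2298, 2088 and 2066 in KahΔATG against 2571, 1775 and 1508 in w1118, and 2746, 3143 and 3273 in KahΔZnF against 2548, 1804 and 1532 in w1118. Here w1118 replicate 1 was above every KahΔATG library, and the KahΔATG estimate was 0.18 (SE 0.16, adjusted p = 0.4), or -0.11 with a term for the mitochondrial share of the libraries. In KahΔZnF RnrS rose by 0.67 (adjusted p = 0.00326), a call that was lost without w1118 replicate 3 (0.51) or with the mitochondrial term (0.53).

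Of the chromatin assembly factor 1 subunits, Caf1-180, the largest, was called higher in both mutants and Caf1-105 in KahΔZnF. Caf1-180 had 2237, 2301 and 2143 in KahΔATG against 1265, 1485 and 1062 in w1118, and 3484, 2599.5 and 2635 in KahΔZnF against 1254, 1509 and 1078 in w1118. Caf1-105 had 282, 285 and 307 in KahΔATG against 267, 238 and 225 in w1118, and 398, 384 and 419 in KahΔZnF against 264, 242 and 229 in w1118. Neither gene overlapped w1118 in either mutant, with estimates in KahΔATG of 0.82 (adjusted p = 2.70e-04) and 0.26 (adjusted p = 0.0647), and rises in KahΔZnF of 1.18 and 0.71.

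The mutants were then compared with each other on reads scaled together, in a test in which w1118 plays no part. Most replication genes had estimates above 0. The median log2 difference, KahΔZnF over KahΔATG, was 0.44 for the 32 genes and 0.01 for all 10838 genes tested. The quartiles were 0.36 and 0.51 for the 32 genes, and -0.37 and 0.27 for all genes. Most differences were under the limit on size, so that 5 genes were called higher in KahΔZnF, where 4.74% of all genes were, and 1 (Orc1) was called lower, where 14% were. All 3 KahΔZnF libraries lay above all 3 KahΔATG libraries for 29 of the 32 genes, against 30.2% of all genes. Over the 3 genotypes, means lay in the descending order KahΔZnF, KahΔATG, w1118 for 30 of the 32 genes, against 36.5% of all genes, and for 21 of the 32, against 18.9% of all genes, no neighbouring groups in that order overlapped.

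Orc1 was lower in KahΔZnF, with 807, 746 and 721 normalized counts on the shared scale, against 1712, 1663 and 1574 in KahΔATG. It fell by 1.12 (log2, SE 0.07, adjusted p = 1.62e-06). Psf1 showed the largest positive difference, with 202, 170.2 and 181 in KahΔZnF against 81.2, 87.6 and 62.8 in KahΔATG (1.25, SE 0.16, adjusted p = 1.01e-04). Orc5 followed, with 301, 279 and 284 in KahΔZnF against 204, 143 and 149 in KahΔATG (0.81, SE 0.14, adjusted p = 6.63e-04). These 3 genes were separated between the mutants without overlap. Psf2 (0.69, SE 0.14), Orc2 (0.64, SE 0.11) and Mcm3 (0.59, SE 0.10) were the other calls. Orc2 lost its call without KahΔATG replicate 3 (0.57), and Mcm3 without KahΔATG replicate 2 (0.54) or KahΔZnF replicate 3 (0.50). Without KahΔZnF replicate 1, the mutant library with few mitochondrial reads, 9 genes were called higher in place of 5. The smallest differences were those of RfC3 (0.25, SE 0.15, adjusted p = 0.188) and Mcm10 (0.25, SE 0.08, adjusted p = 0.0234).

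**Figure D4:**
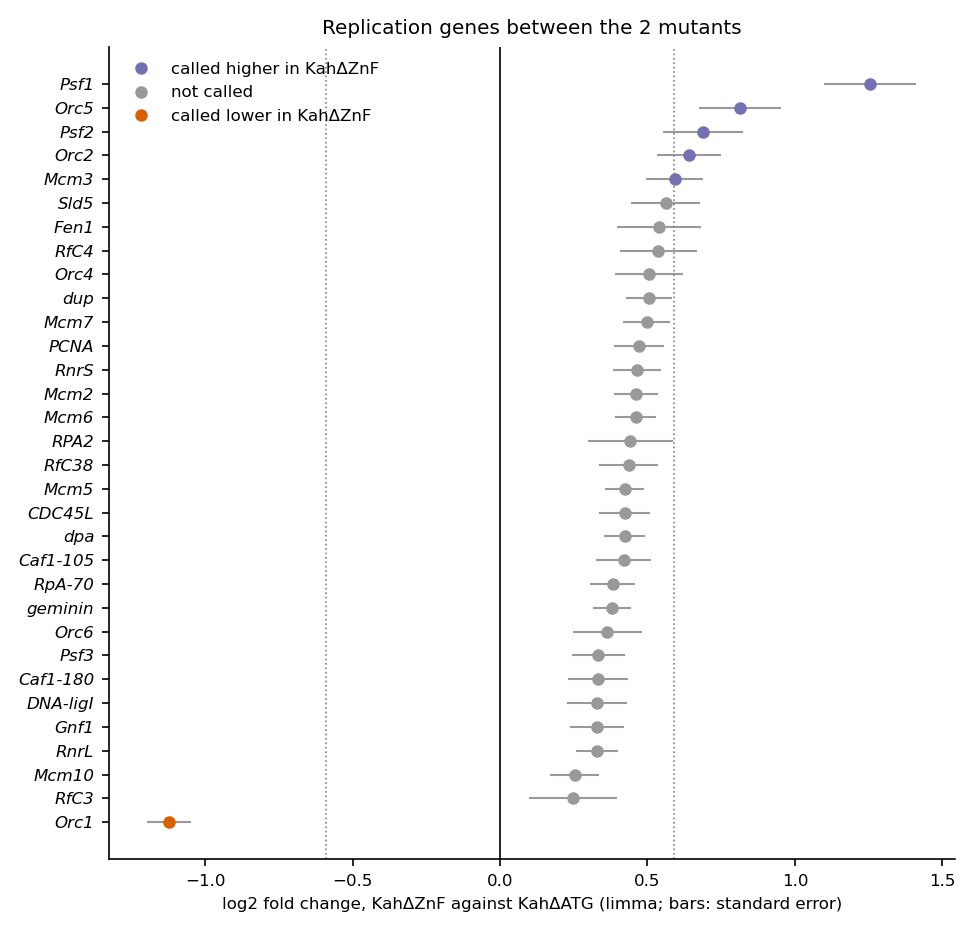
Log2 difference of each of the 32 replication genes between the mutants (KahΔZnF over KahΔATG, x axis), with bars for the standard error over 3 against 3 libraries and dotted lines at 0.59 and -0.59. The 5 purple points were called higher in KahΔZnF, Orc1 at the bottom (orange, -1.12) was called lower, and the 26 grey points, between 0.25 and 0.56, were not called.

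Levels of the 32 genes spanned a wide range. On a scale shared by all 9 libraries, geminin was highest with means of 3699 normalized counts per kb of exon in KahΔATG, 4911 in KahΔZnF and 1603 in w1118. In w1118 it was followed by RnrS (1203) and PCNA (1164), and the lowest levels were those of Orc5 (80.6), Orc2 (79.6) and Psf1 (77.5). In KahΔZnF, dup (2546) and PCNA (2428) came after geminin, and RnrS (1869) was next. The MCM genes lay between 187 (Mcm7) and 469 (Mcm6) in w1118, and the ORC genes between 79.6 (Orc2) and 165 (Orc4). In KahΔATG the ORC genes lay between 98.6 (Orc5) and 526 (Orc1).

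Other genes of the pathway are given by role, with the shares of all genes called higher, 14.7% in KahΔATG and 23.8% in KahΔZnF, as the background of each count. Of 11 polymerase and primase genes, 4 were called higher in KahΔATG and 9 in KahΔZnF. DNApol-alpha180, the catalytic subunit of the priming polymerase, had an estimate of 0.48 in KahΔATG and rose by 0.94 in KahΔZnF. Of 10 initiation kinases and regulators, 2 were called higher in KahΔATG, a share near that of all genes, and 8 in KahΔZnF. The limit on size hides a shift in KahΔATG, where the median log2 fold change of the list was 0.45. All 10 had every KahΔATG library above every w1118 library, against 29.6% of all genes. Called in both were chif, the activator of the Cdc7 kinase (0.99 in KahΔATG and 1.03 in KahΔZnF), and pic (0.93 in KahΔATG and 1.32 in KahΔZnF). CycE, the cyclin of S phase entry, had 0.47 in KahΔATG and rose by 0.81 in KahΔZnF. Of 12 further fork, loader and chromatin factors, 5 were called higher in KahΔATG and 12 in KahΔZnF, with Top2 (topoisomerase II) at 1.14 in KahΔATG and 1.68 in KahΔZnF. RPA3, the third RPA subunit, rose by 1.17 in KahΔATG and 1.68 in KahΔZnF.

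Among other nucleotide supply genes, Ts, thymidylate synthase, had 0.27 in KahΔATG and rose by 0.81 in KahΔZnF. Of 6 E2F and DREF factors, which control transcription of replication genes, 1 was called higher in KahΔATG, again near the share of all genes, and 3 in KahΔZnF. In KahΔATG 4 of the 6 had every library above every w1118 library, against 29.6% of all genes, and the median log2 fold change was 0.32. The activator E2f1 had 0.10 in KahΔATG and 0.25 in KahΔZnF and was called in neither, whereas Dref rose by 0.72 in KahΔATG and 1.11 in KahΔZnF. Of the genes on these pathway lists, CG8142 alone was called between the mutants, higher in KahΔZnF by 0.69.

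Lists of other processes and cell types differed in their counts, to be set against 14.7% of all genes called higher and 10.6% lower in KahΔATG, and 23.8% higher and 25.5% lower in KahΔZnF. Of 13 genes of the mitotic cycle, 12 were called higher in both mutants, with a median log2 fold change of 1.18 in KahΔATG and 1.76 in KahΔZnF, larger than the medians of the replication genes. Examples were CycB, a mitotic cyclin (1.31 in KahΔATG and 1.76 in KahΔZnF), and polo, a mitotic kinase (1.75 in KahΔATG and 2.21 in KahΔZnF). The exception was stg, the Cdc25 phosphatase that triggers mitosis in these embryos (-0.17 in KahΔATG and 0.27 in KahΔZnF). Of 12 RNAs that the mother loads into the egg, 10 were called higher in both mutants by limma, with medians of 1.73 in KahΔATG and 2.07 in KahΔZnF. edgeR and DESeq2 each called 9 higher in KahΔATG and 10 in KahΔZnF. Among the 10 called by limma were bcd (2.28 in KahΔATG and 2.51 in KahΔZnF) and osk (2.25 in KahΔATG and 2.71 in KahΔZnF). Of the other 2, png had 0.44 in KahΔATG (limma adjusted p = 0.213) and 0.70 in KahΔZnF (0.0679). The germ cell gene gcl had estimates below 0, -0.39 in KahΔATG (limma adjusted p = 0.00156) and -0.57 in KahΔZnF (0.000232), under the limit on size, with every mutant library below every w1118 library, and edgeR called it lower in KahΔZnF. Of 8 neuron genes 6 were called lower in KahΔZnF, and 0 were called in KahΔATG by limma, edgeR or DESeq2, where 5 were lower at an unadjusted p under 0.05 in each tool. Of 8 muscle genes, 1 was called lower in KahΔATG, near the share of all genes, and 7 in KahΔZnF. In KahΔATG, however, 0 of the 8 muscle estimates were above 0, and 7 had an adjusted p of at most 0.05 in limma. The muscle median there was -0.54, where that of all genes was -0.02, so most missed only the limit on size. Of 9 cuticle genes, 2 were called higher and 2 lower in KahΔATG, and 2 higher and 3 lower in KahΔZnF. The cuticle median was 0.05 in KahΔATG and -0.34 in KahΔZnF, where those of all genes were -0.02 and 0.00. Between the mutants, KahΔZnF over KahΔATG, the cuticle median was -0.52, where that of all genes was 0.01. Of 7 genes of the visceral mesoderm, the tissue in which *Kah* was studied, 0 were called in either mutant by limma, edgeR or DESeq2, where 0 had an unadjusted p under 0.05 in limma or DESeq2, and edgeR gave 1, lower in KahΔZnF.

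Summed over each list and set against the w1118 mean of 1, the replication genes were at 1.86, 1.74 and 1.68 in KahΔATG, 2.38, 2.30 and 2.40 in KahΔZnF and 1.11, 0.997 and 0.889 in w1118. The mitotic genes were at 2.45, 2.36 and 2.22 in KahΔATG, 3.41, 3.07 and 3.28 in KahΔZnF and 1.04, 1.02 and 0.935 in w1118. The maternal RNAs were at 2.57, 2.61 and 2.38 in KahΔATG, 3.32, 2.88 and 2.93 in KahΔZnF and 0.928, 1.06 and 1.01 in w1118. In the sums of all of these lists the mutant libraries lay above the w1118 libraries, with KahΔZnF above KahΔATG. The maternal sum was mostly smg, with 13811, 14515 and 12572 normalized counts in KahΔATG, where the list summed to 17676 to 19624. Gene by gene, 1 of the 12 maternal RNAs had every KahΔZnF library above every KahΔATG library, against 30.2% of all genes. Their median log2 difference between the mutants was 0.20. The muscle genes were at 0.624, 0.724 and 0.73 in KahΔATG, 0.573, 0.504 and 0.454 in KahΔZnF and 0.845, 1.10 and 1.05 in w1118. The neuron genes were at 0.694, 0.812 and 0.763 in KahΔATG, 0.615, 0.533 and 0.494 in KahΔZnF and 0.804, 1.03 and 1.16 in w1118. Within w1118, replicate 1 was highest for the replication genes and lowest for muscle and neuron genes. The sum of the visceral mesoderm genes stayed between 0.94 and 1.02 in all 9 libraries. It was mostly Fas3, with 7782, 7927 and 7993 normalized counts in KahΔATG, where the list summed to 9835 to 10184. The part of developmental timing, of maternal RNA and of tissue make-up in the values of the replication genes was not tested.

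**Figure D5:**
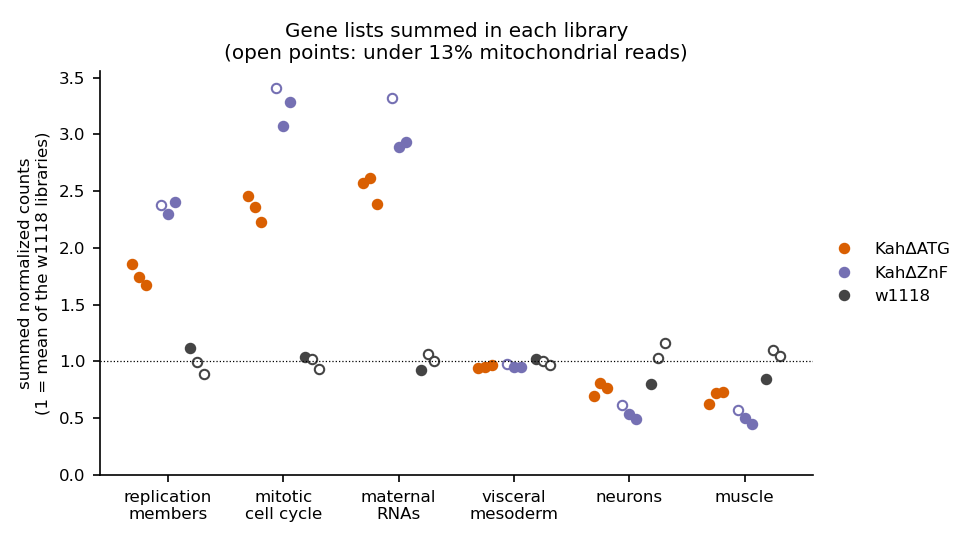
Summed normalized counts of 6 gene lists in each library, relative to the mean of the w1118 libraries (y axis from 0), with KahΔATG in orange, KahΔZnF in purple and w1118 in grey, and open points for libraries with under 13% mitochondrial reads. Replication, mitotic and maternal lists lie above 1 in all mutant libraries, visceral mesoderm lies near 1, and neuron and muscle lists lie below 1 in all mutant libraries.

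Without w1118 replicate 1, 18 of the 32 genes were called higher in KahΔATG in place of 12, the added ones being Mcm3, dpa, Psf1, PCNA, DNA-ligI and RnrL. All 30 calls in KahΔZnF held without that library. A stricter test, against a 1.5-fold change rather than against 0, called 5 genes higher in KahΔATG (Mcm7, Mcm10, Orc1, dup and geminin), 21 in KahΔZnF, and between the mutants Psf1 higher and Orc1 lower in KahΔZnF. It no longer called Psf3 lower in KahΔATG. With a term for the mitochondrial share, 10 genes were called higher in KahΔATG, 28 in KahΔZnF, and 12 higher in KahΔZnF than in KahΔATG. The term marks libraries under 13% in a fit of all 9 libraries, so w1118 enters the comparison of the mutants here. No KahΔATG library was under 13%.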

How the data were processed

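RNA of 9 whole-embryo samples was sequenced as paired-end reads. Per the labels and the study's methods, the authors aligned reads with HISAT2 2.0.5 to BDGP6, counted them on genes with featureCounts 1.5.0-p3 and scaled them with DESeq2 1.20.0. In the deposited tables, 1 per mutant, the signal is a read count that the authors divided by a size factor of its library. The authors' own fold changes and p-values in these tables were not used. Whole reads were recovered for 100% of values above 0 (within 0.01 of a whole number), and w1118 reads were equal in both tables for all 14306 shared genes. No 2 replicates agreed within counting error (chi-square of 5.42 to 71.4 for each degree of freedom), and all 9 were used. Replicate 1 of KahΔZnF (71.4 and 70.0) and replicate 1 of w1118 (55.7 and 46.4) were furthest from the other replicates of their group. All other pairs had 5.42 to 9.02.

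Each mutant was compared with w1118 in its own table by limma 3.58.1 (R 4.3.3) with a mean-variance trend on log2(value + 1), which understates fold changes of low genes. A gene was tested when 3 or more of the 6 libraries had a value of 10 or higher, and Benjamini-Hochberg adjustment ran over all genes tested. The mutants were compared on recovered reads scaled together by median ratios. edgeR 4.0.16, DESeq2 1.42.0 and other settings were alternatives, and the tests were checked on simulated data. Exon overlaps and positions come from an Ensembl annotation of the same assembly, whose coordinates equal the files' for all 32 genes. The genes, lists, complexes and within-library ratios were chosen with earlier results of these data known. Values are given in full for the genes of each complex, and other genes come from lists by role (dUTPase was not analysed here). The DamID, ChIP and single-cell data were not used here. The result of 1 gene on the list of other nucleotide supply genes is not reported here, and no count is given for that list.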

Additional observations from a re-analysis of the deposited data

Results flagged for a closer look

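For 6 of the 32 replication genes the direct test of KahΔZnF against KahΔATG called a difference (limma, log2 difference on reads scaled together). A call again needs an adjusted p of 0.05 or less and a log2 difference of 0.59 or more in size. Orc1 was lower in KahΔZnF, with a difference of -1.12. The other 5 were higher in KahΔZnF, with differences of 1.25 for Psf1, 0.81 for Orc5, 0.69 for Psf2, 0.64 for Orc2 and 0.59 for Mcm3. In each of the 6 genes all 3 libraries of a mutant lay on the same side of all 3 libraries of the other. This does not set the 6 apart. All KahΔZnF libraries lay above all KahΔATG libraries for 29 of the 32 genes, against 30.2% of all genes. In limma 31 of the 32 had an adjusted p of at most 0.05, so most uncalled genes missed only the limit on size. By its estimate, Orc1 was the 1 gene of the 32 that was lower in KahΔZnF.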

How the results depend on the processing

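Over 15 alternatives per comparison, 5 of the 13 calls against w1118 in KahΔATG, 21 of the 30 in KahΔZnF and 2 of the 6 between the mutants (Orc1 and Psf1) held throughout, and 6, 0 and 7 uncalled genes gained a call in at least 1 alternative. A test against a 1.5-fold change left 5 genes higher and 0 lower in KahΔATG (limma's treat, where 1 was lower in the main test, in edgeR and in DESeq2) and 1 higher between the mutants. By construction this test asks more than a size limit. A term for mitochondrial share (under or over 13%) was added in a fit of all 9 libraries. With it, the median was 0.383 in KahΔATG and RnrS turned to -0.11 there. Between the mutants, 12 genes were then called higher with a median of 0.51. The cause was not tested. Leaving out each library gave 10 to 18 genes higher in KahΔATG, 28 to 30 in KahΔZnF and 4 to 9 between the mutants. edgeR, DESeq2 and TMM scaling each gave 12 higher in KahΔATG, 29 in KahΔZnF and 5 between the mutants.

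The replicate numbers were not taken to pair the samples, since correlations of same-numbered deviations were 0.25, 0.092 and 0.12 for KahΔATG with w1118 but -0.26, -0.097 and -0.098 for KahΔZnF with w1118, and -0.087, -0.086 and -0.023 between the mutants. A fit with the replicate block called 12 genes higher in KahΔATG, 30 in KahΔZnF and 5 between the mutants, as without it. Genes with few reads, such as Psf1 with 47 to 223, have the widest counting error.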
